A study of Mus musculus with 6 samples.

Results

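The genes described here are 8 of the enzymes that make haem and the carrier that brings iron to the last of them, Alas1, Alas2, Alad, Uros, Urod, Cpox, Ppox, Fech and Slc25a37. They were found by gene symbol in the array annotation, which gave 1 probe set for each of the 9 genes among 35557 probe sets in all, and each of them passed the filter on dim signals that left 16387 probe sets for testing. Total RNA of yolk sacs from mouse embryos at embryonic day 9.5 was profiled on Affymetrix Mouse Gene 1.0 ST arrays, with 3 arrays of wild-type littermates and 3 of embryos homozygous for a gene-trap allele of Tnrc6a (GW182gt/gt). Tnrc6a encodes GW182, a protein that joins Argonaute to the decay of mRNAs bound by microRNAs. Each yolk sac came from a separate embryo, and both genotype labels add mixed, a term the labels leave undefined. Neither strain nor trap position within Tnrc6a was stated in the labels. The design compares mRNA levels between mutant and wild-type yolk sacs.

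Haem is built in mitochondria and cytosol. Aminolevulinate synthase joins glycine and succinyl-CoA in the mitochondrion, and exists as a form made in all tissues, ALAS1, and a form made in red cells, ALAS2. In the cytosol ALAD, UROS and UROD help to build and trim the porphyrin ring, and CPOX, PPOX and FECH finish it back in or on the mitochondrion, where FECH inserts the iron that SLC25A37 (mitoferrin 1) brings across the inner membrane. At this age the yolk sac holds the primitive red cells, which fill with embryonic globin and need large amounts of haem, beside an endoderm that also makes haem for its own enzymes.

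The arrays bear some departures that touch the results. Tnrc6a read 8.40, 7.62 and 8.29 in wild types 1 to 3 and 5.33 and 5.20 in mutants 2 and 3, but 7.81 in the array labelled mutant 1, which goes against its label and is called the library labelled mutant 1 throughout. Values are given in the order of the replicate numbers, so that this library is the first of the mutant arrays. Array medians lay between 5.19 and 5.22 on the deposited log2 scale, and array pairs correlated across probe sets at r = 0.986 to 0.994 within a genotype and 0.986 to 0.995 between genotypes. The highest r of all pairs, 0.995, was that of wild type 1 with the library labelled mutant 1. Embryonic globins were bright on every array, with Hbb-y between 12.68 and 13.11, and the mean of 18 visceral endoderm markers lay between 10.68 and 10.91. Xist was high (9.63 to 10.003) in wild type 1, the library labelled mutant 1 and mutant 3, and read 3.58 to 3.90 on the other arrays, so that mutant 2 was the only mutant array with a low reading. The Y-linked genes Kdm5d and Eif2s3y read 5.95 to 6.23 and 7.10 to 7.46 on the arrays with low Xist. On those with high Xist they read 3.20 to 3.32 and 2.29 to 2.42. By these genes wild types 2 and 3 and mutant 2 read as male. A list of trophoblast and decidua markers, with 10 of 13 genes on the array, had its highest means in wild type 2 (6.10) and mutant 2 (5.69), against 4.54 to 4.87 on the others.

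Of the 9 genes, 8 had a lower mean in the mutants, against 47.6% of all tested probe sets, and 1, Alas1, a higher mean. None passed the test between genotypes. The median difference of the 9 was −0.31 on the log2 scale, and −0.12 without mutant 2, where the median of all tested probe sets over the 6 arrays was 0.0063. Without the library labelled mutant 1 the median of the 9 was −0.40. In limma 0 of 9 passed an adjusted p of 0.05 (adjusted p = 0.999 for each), where 0% of all tested probe sets did. At an unadjusted limma p under 0.05 there were 3, Alas1, Alas2 and Ppox, where 3.53% of all tested probe sets reached it, 2.25% upward and 1.28% downward in the mutants. For the same 3 genes mutant and wild-type arrays did not overlap, against 8.55% of all tested probe sets, 5.17% upward and 3.38% downward. The methods' t-test placed 1 of the 9, Alas1, under 0.05. In whole yolk sac RNA, fewer red cells and less of an mRNA per red cell cannot be told apart.

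**Figure D1:**
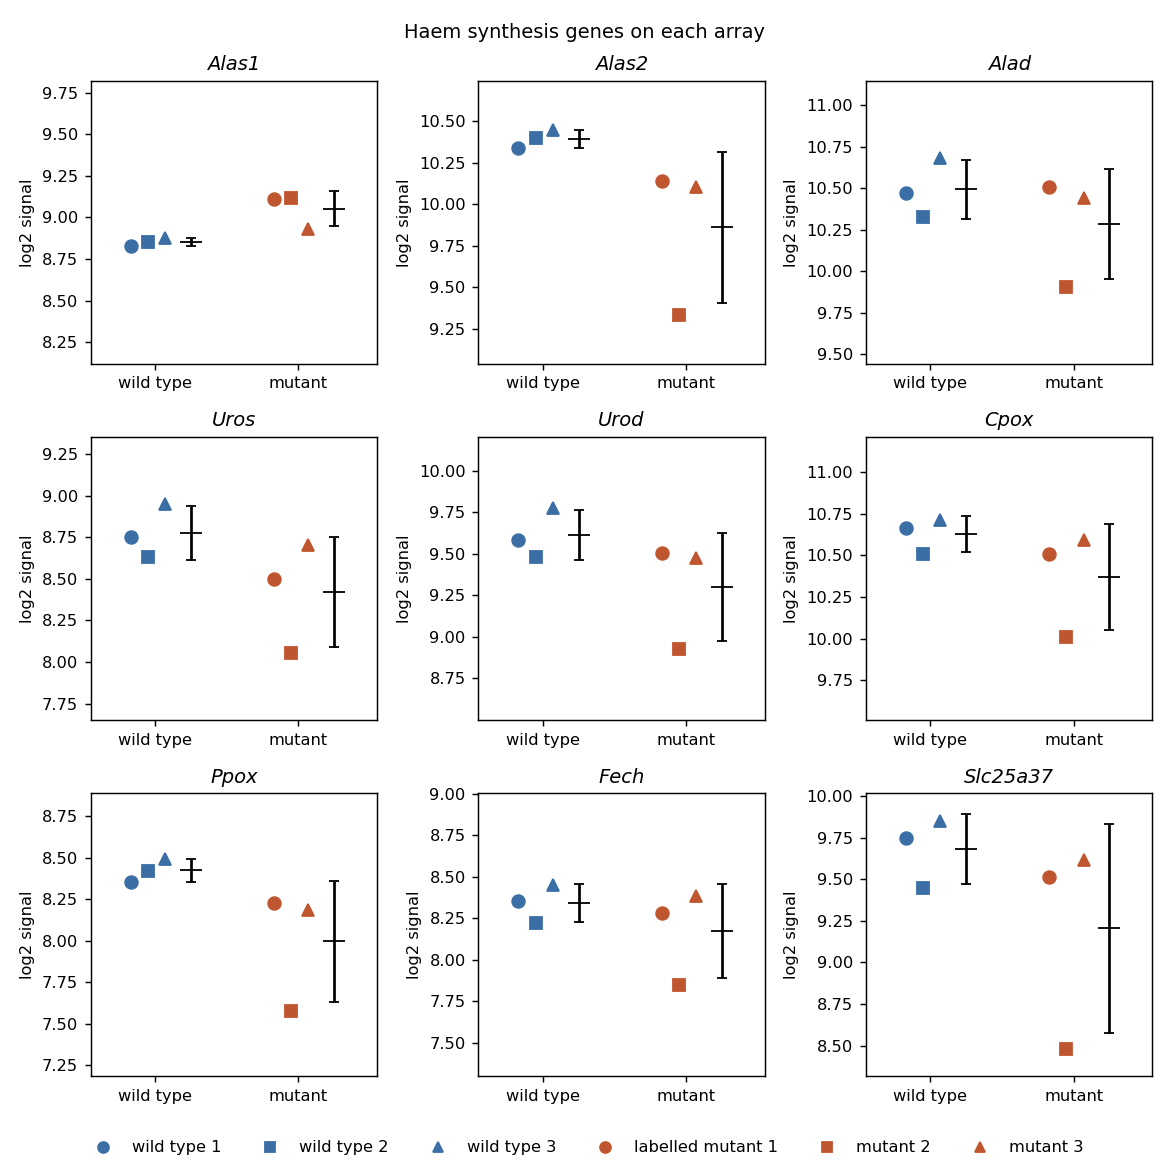
Log2 signal (vertical axes, each spanning the same range) of the 9 haem synthesis genes on the 3 wild-type arrays (blue) and the 3 mutant arrays (orange), with bars for the mean ± SD of each genotype. Mutant 2, the orange square, is the lowest of the 6 arrays in every panel but that of Alas1.

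The pathway starts with the pair of aminolevulinate synthases, whose mutant means lay on opposite sides of the wild types, neither past the adjusted threshold. Alas1 read 8.83, 8.85 and 8.88 on the wild-type arrays and 9.11, 9.11 and 8.93 on the mutant arrays. All 3 mutant arrays lay above all 3 wild types, the library labelled mutant 1 and mutant 2 by about the same step and mutant 3 by less. The means were 8.85 ± 0.026 (SD, n = 3) and 9.05 ± 0.10 (SD, n = 3), 1.15-fold higher in the mutants. The log2 difference was 0.20 (SE 0.084, 95% interval 0.0044 to 0.40) with a limma p of 0.0462 before and 0.999 after Benjamini-Hochberg adjustment. The unadjusted p stayed under 0.05 in 9 of 18 alternative fits, and was 0.132 without mutant 2 and 0.133 without the library labelled mutant 1.

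Alas2, the X-linked gene of the red-cell form, read 10.34, 10.40 and 10.45 on the wild-type arrays and 10.14, 9.34 and 10.11 on the mutant arrays. The wild types lay within a narrow band, and every mutant array lay below it, mutant 2 by far the most. The means were 10.39 ± 0.054 (SD, n = 3) and 9.86 ± 0.45 (SD, n = 3), 1.45-fold lower in the mutants. The log2 difference was −0.53 (SE 0.21, 95% interval −1.01 to −0.054), the largest of the 9 genes in size, with a limma p of 0.0336 before and 0.999 after adjustment. Without mutant 2 it was −0.27, with an unadjusted limma p of 0.0213, and the groups still did not overlap. That fit keeps the library labelled mutant 1, whose Tnrc6a reading goes against its label. Without this library the difference was −0.67, with an unadjusted limma p of 0.0168. The unadjusted p stayed under 0.05 in 13 of 18 alternative fits. It was 0.113 in the methods' t-test, and in limma 0.061 to 0.086 when a wild-type array was left out. With a mean of erythroid markers as a covariate in limma it was 0.196. Among arrays with high Xist the difference was −0.22, and among those with low Xist, where mutant 2 is the single mutant array, it was −1.09. Wild type 1 is the single wild-type array with high Xist, and the library labelled mutant 1 is among the mutant arrays there. For Alas1 the differences at high and low Xist were 0.19 and 0.25.

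The within-array difference of the pair, Alas2 minus Alas1 on the log2 scale, takes out a shift shared by a whole array. It does not take out a change in the share of red cells. The difference read 1.51, 1.55 and 1.57 on the wild-type arrays and 1.03, 0.22 and 1.17 on the mutant arrays. All 3 mutant arrays lay below the wild types, which spanned less than 0.1. That order was fixed beforehand, since Alas1 was higher and Alas2 lower in the mutants without overlap. The permutation p below was fixed with it and is no further test. The genotype means were 1.54 ± 0.029 (SD, n = 3) and 0.81 ± 0.51 (SD, n = 3), a difference of −0.73, and the exact two-sided permutation test gave p = 0.1, the smallest that 3 against 3 arrays allow. Without mutant 2 the difference was −0.44.

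Sequences before the starts are shown for the pair, whose mutant means lay on opposite sides of the wild types, and for the other searched genes with a GATA match. From RefSeq's promoter table (GRCm38.p6) 10 windows of 7 of the 9 genes were searched, in the 250 bases before each start on both strands. Fech was left out of the search, and Slc25a37 had no window. The letters searched were AGATAA and TGATAA, which are bound by GATA factors such as the red-cell factor GATA1, CCNCACCC, a form of the CACCC box of KLF factors, and the palindrome of nuclear respiratory factor 1 (NRF1), which is GCGCA followed by its reverse complement. AGATAA or TGATAA was found in 3 of the 10 windows, 1 each of Alas2, Uros and Cpox, against 16.6% of 32841 promoter windows. In the window of Alas2 (plus strand, chrX:150547167-150547416) AGATAA lies on the minus strand, 86 bases before the start, followed by a pair of overlapping CACCC boxes that begin 40 and 35 bases before it. CCNCACCC was in 14.9% of all windows, and the windows of Alas1 held it too, but neither GATA form. A window of Alas1 held the NRF1 palindrome, which 0.783% of all windows did, 195 bases before the more downstream of its annotated starts. Capitals mark the matches, and a match is a run of letters, not a shown binding site.
Alas2, 250 bases before the start: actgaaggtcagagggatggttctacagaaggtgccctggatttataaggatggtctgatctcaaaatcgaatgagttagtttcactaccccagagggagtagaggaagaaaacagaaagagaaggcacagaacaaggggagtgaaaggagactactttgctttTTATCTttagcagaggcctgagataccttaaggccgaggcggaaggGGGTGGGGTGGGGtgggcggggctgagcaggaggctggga
Alas1, minus strand, chr9:106247906-106247935: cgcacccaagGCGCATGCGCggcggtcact
Cpox, plus strand, chr16:58669958-58670207, 250 bases before the start: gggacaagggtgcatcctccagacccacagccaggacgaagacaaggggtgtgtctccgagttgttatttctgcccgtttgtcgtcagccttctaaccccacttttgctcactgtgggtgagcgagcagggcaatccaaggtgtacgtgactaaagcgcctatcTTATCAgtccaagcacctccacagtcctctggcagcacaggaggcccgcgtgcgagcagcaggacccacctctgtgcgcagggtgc
Uros, minus strand, chr7:133702551-133702580: tctccctcagccTTATCAgtgacagagggc

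The cytosolic enzymes that follow were lowest in mutant 2, with the other mutant arrays nearer to the wild types. Alad, whose enzyme joins aminolevulinate molecules into porphobilinogen, read 10.47, 10.33 and 10.68 on the wild-type arrays and 10.51, 9.91 and 10.44 on the mutant arrays. Only mutant 2 lay outside the wild-type range. The difference was −0.21 (SE 0.17, 95% interval −0.61 to 0.20, limma p of 0.269, exact permutation p = 0.5) and −0.017 without mutant 2.

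Uros, which closes the ring into uroporphyrinogen III, lies on chromosome 7, as does Tnrc6a. It read 8.75, 8.63 and 8.95 on the wild-type arrays and 8.50, 8.05 and 8.70 on the mutant arrays. The library labelled mutant 1 and mutant 2 lay below all wild types, and mutant 3 lay among them. The difference was −0.36 (SE 0.17, 95% interval −0.76 to 0.040, limma p of 0.0714, exact permutation p = 0.2) and −0.18 without mutant 2. The TGATAA match of Uros stands 68 bases before the more downstream of the gene's annotated starts.

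Urod, which decarboxylates uroporphyrinogen, read 9.58, 9.48 and 9.77 on the wild-type arrays and 9.501, 8.93 and 9.48 on the mutant arrays. Mutant 3 lay just under the lowest wild type and the library labelled mutant 1 just over it, with mutant 2 well below. The difference was −0.31 (SE 0.17, 95% interval −0.70 to 0.078, limma p of 0.102, exact permutation p = 0.2) and −0.12 without mutant 2.

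Among the later enzymes, the groups overlapped for Cpox and Fech but not for Ppox. Cpox, which oxidises coproporphyrinogen, read 10.66, 10.51 and 10.71 on the wild-type arrays and 10.51, 10.01 and 10.60 on the mutant arrays. Mutant 2 alone lay clearly below the wild types, and the library labelled mutant 1 was level with wild type 2. The difference was −0.26 (SE 0.16, 95% interval −0.63 to 0.11, limma p of 0.144, exact permutation p = 0.3) and −0.076 without mutant 2.

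Ppox, which oxidises protoporphyrinogen to protoporphyrin, read 8.36, 8.42 and 8.49 on the wild-type arrays and 8.23, 7.58 and 8.18 on the mutant arrays. As for Alas2, all mutant arrays lay below all wild types. The means were 8.42 ± 0.069 (SD, n = 3) and 7.996 ± 0.36 (SD, n = 3), 1.35-fold lower in the mutants, with a difference of −0.43 (SE 0.17, 95% interval −0.83 to −0.029). The limma p was 0.0388 before and 0.999 after adjustment, and 0.0537 unadjusted without mutant 2, where the difference was −0.22. Without the library labelled mutant 1 the difference was −0.54, with an unadjusted limma p of 0.0197.

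Fech, the enzyme that places iron in the ring, read 8.35, 8.22 and 8.45 on the wild-type arrays and 8.28, 7.85 and 8.38 on the mutant arrays. Its mutant arrays other than mutant 2 lay inside the wild-type range, and it had the smallest difference of the 8 lower genes, −0.17 (SE 0.15, 95% interval −0.51 to 0.17, limma p of 0.278, exact permutation p = 0.5). Without mutant 2 this was −0.011.

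Slc25a37, the iron carrier, showed the widest spread. It read 9.75, 9.45 and 9.85 on the wild-type arrays and 9.52, 8.48 and 9.62 on the mutant arrays. Mutant 2 lay 2.30-fold below the wild-type mean, the largest departure of any of the 9 genes on any array, while the other mutant arrays lay among the wild types. The difference was −0.48 (SE 0.29, 95% interval −1.15 to 0.19, limma p of 0.138, exact permutation p = 0.3) and −0.12 without mutant 2.

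**Figure D2:**
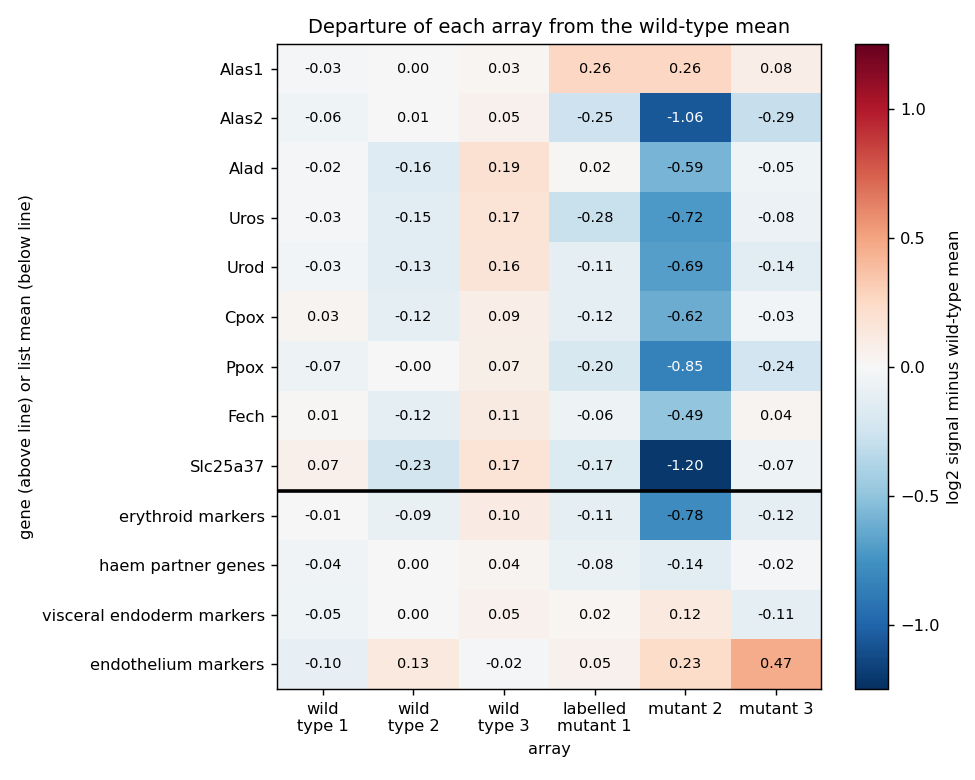
Log2 signal minus the wild-type mean on each of the 6 arrays (columns), for the 9 genes (above the line) and for 4 list means (below it). The lists are the erythroid, visceral endoderm and endothelium markers and the partner genes of haem synthesis. Blue is lower and red higher. The column of mutant 2 runs from −0.49 to −1.20 for all genes but Alas1, beside −0.78 for the erythroid list.

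For the 9 genes mutant 2 departed most from the wild types. It was the lowest of the 6 arrays for 8 of the 9 genes, which was so for 18.4% of all tested probe sets, and these 8 lay between 0.49 and 1.20 under the wild-type mean. By a limit set after these values were seen, 2.94% of tested probe sets were lower in mutant 2 by 0.4 or more. The median departure from the wild-type mean over the 9 genes was −0.12, −0.69 and −0.068 on the mutant arrays, where the medians over all tested probe sets were 0.0012, −0.0018 and 0.023. In size, mutant 2 lay farthest from the wild-type mean for Slc25a37 and Alas2 (2.08-fold lower), then Ppox (1.80-fold), Uros (1.65-fold), Urod (1.61-fold), Cpox (1.54-fold), Alad (1.50-fold) and Fech (1.41-fold). Wild-type arrays shared an order too. Wild type 3 was the highest wild type for 9 of 9 genes, against 40% of tested probe sets, and wild type 2 the lowest for 6 of 9, against 34.1%.

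**Figure D3:**
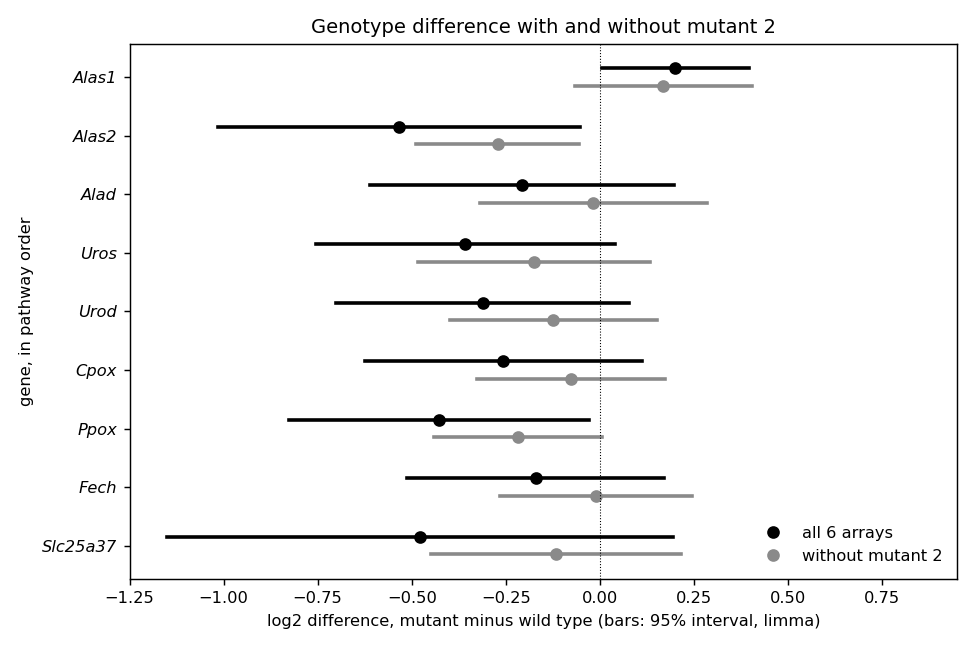
Log2 difference, mutant minus wild type, of the 9 genes with its 95% interval from limma, over all 6 arrays (black) and without mutant 2 (grey). Without mutant 2 all differences keep their sign, the 8 negative ones are smaller, and the interval of Alas2 alone stays clear of 0.

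Red-cell genes showed the same low reading in mutant 2. A list of erythroid markers that holds none of the 9 genes had 28 of 32 members on the array, of which 27 passed the filter on dim signals. Its mean log2 signal ran from 8.50 to 8.69 in wild types and was 8.48, 7.81 and 8.48 on the mutant arrays, all below the wild types. In the mutants 27 of the 28 read lower, with a median difference of −0.32, and mutant 2 was the lowest array for 25 of them. The difference of the list mean was −0.34, and −0.11 without mutant 2. Gata1, the transcription factor of the red-cell lineage, read 7.30 in mutant 2 and 8.12 to 8.50 on the other arrays. The embryonic globin gene Hbb-y read 13.10, 13.11 and 13.05 on the wild-type arrays and 12.91, 12.68 and 12.93 on the mutant arrays. Hba-x, another embryonic globin gene, read 12.76 to 12.79 in wild types and 12.67, 12.27 and 12.74 on the mutant arrays. For these genes all mutant arrays lay below all wild types, as for 3.38% of all tested probe sets. For Hbb-bh1 mutant 3 (12.55) lay among the wild types. Markers of endothelium had a higher mutant mean for all 14 members of their list, with a mean difference of 0.25, and 0.14 without mutant 3. The list mean of the library labelled mutant 1 (7.72) lay below that of wild type 2 (7.80), so that the groups overlapped. Visceral endoderm markers had a mean difference of 0.012. With the erythroid list mean of each array as a covariate in limma, 4 of the 9 genes in place of 8 were lower, and the differences of Alas2 and Alas1 were −0.16 and 0.16.

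Set against the erythroid list of the same array, the 8 lower genes no longer shared a direction. Alas2 minus the list mean was 1.75, 1.90 and 1.75 on the wild-type arrays and 1.66, 1.53 and 1.63 on the mutant arrays. All mutant arrays were again below all wild types, with a difference of −0.20 (exact two-sided permutation p = 0.1, 0.3 after Benjamini-Hochberg adjustment over the 9 genes). Over all tested probe sets, most of which are not red-cell genes, 0.0671% were lower without overlap on this scale. Of the 28 erythroid genes themselves 3 were, Rhag, Hemgn and Kel, and 4 had a lower difference than Alas2.

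For Ppox the difference on this relative scale was −0.091, with overlapping groups. Fech was higher in all 3 mutant arrays, at −0.20, 0.040 and −0.098, against −0.28 to −0.24 in wild types, a difference of 0.17 (exact permutation p = 0.1, adjusted 0.3). On this scale 24.1% of all tested probe sets were higher without overlap, and of the 28 erythroid genes 2 were, Xpo7 and Tal1. Alas1 was higher by 0.54 in the mean, led by mutant 2, where the list itself was low. Its lack of overlap here was fixed beforehand, since on every mutant array Alas1 was higher and the list mean lower than in all wild types. The groups overlapped for Alad (0.13), Cpox (0.080), Urod (0.026), Uros (−0.021) and Slc25a37 (−0.14). Without mutant 2 the relative differences were 0.28 for Alas1, 0.10 for Fech and 0.037 for Cpox. Those of Urod, Uros and Slc25a37 were then −0.010, −0.063 and −0.0038. Slc25a37 was still lowest in mutant 2, at 0.67 against 0.95 to 1.16 on the other arrays.

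**Figure D4:**
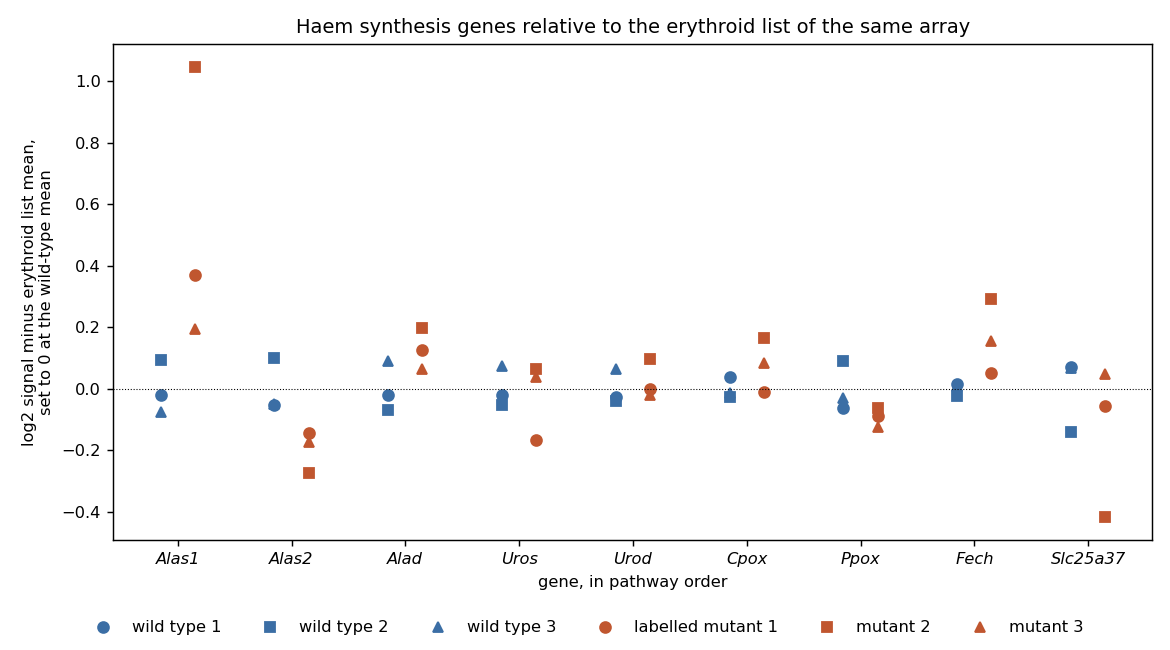
Log2 signal of each gene minus the mean of the erythroid list on the same array, set to 0 at the wild-type mean of that gene (vertical axis), for 3 wild-type (blue) and 3 mutant arrays (orange). Alas2 lies below the wild types and Alas1 and Fech above them on all 3 mutant arrays, while the other genes overlap.

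Genes that serve haem synthesis without being its enzymes were read from a list of carriers of intermediates, iron-sulfur factors, haem exporters, haem breakdown enzymes and haem sensors. Of 37 listed genes 33 were tested, and in limma 0 passed the adjusted threshold in either direction. Of the 33, 21 read lower and 12 higher in the mutants, with a median of −0.042, where 47.6% of all tested probe sets read lower. An unadjusted p under 0.05 was reached by 2, against 3.53% of all tested probe sets. Mutant 2 was the lowest array for 12 of them (18.4% of all tested probe sets), and 8 lay 0.4 or more under the wild-type mean there (2.94% of all tested probe sets).

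The 6 with the lowest unadjusted p were all lower in the mutants. Flvcr1, an exporter of haem from the cell, read 8.10, 8.06 and 7.97 on the wild-type arrays and 7.80, 7.67 and 7.85 on the mutant arrays. Its groups did not overlap, which was so for 1 of the 33 genes and, in this direction, for 3.38% of all tested probe sets. It had a difference of −0.27 (SE 0.085) and a limma p of 0.0154 before and 0.999 after adjustment, and its arrays differed less among the mutants than those of the enzymes. Hebp1, a haem-binding protein, differed by −0.30 (SE 0.12), with mutant 3 level with wild type 2. Eif2ak1, the kinase HRI that slows globin translation when haem is short, differed by −0.27 (SE 0.15) and read 7.72 in mutant 2 against 8.21 to 8.40 elsewhere.

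Like those above, the rest of the 6 were lowest in mutant 2. Fam210b, a mitochondrial protein of red-cell haem synthesis, differed by −0.26 (SE 0.15). Abcb6, a porphyrin transporter, differed by −0.25 (SE 0.16), with mutant 3 inside the wild-type range. Blvrb, a biliverdin reductase abundant in red cells, differed by −0.33 (SE 0.21) and read 8.23 in mutant 2 against 8.96 to 9.24 on the other arrays.

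**Figure D5:**
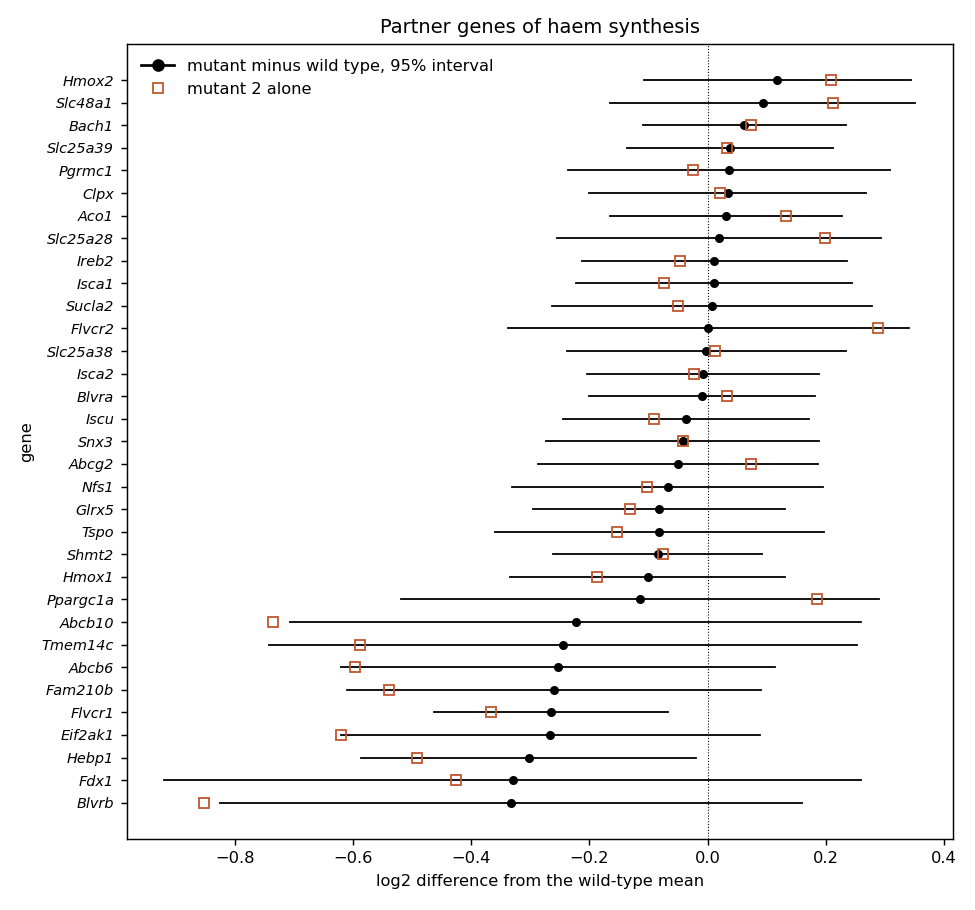
Log2 difference, mutant minus wild type, of 33 partner genes of haem synthesis with its 95% interval from limma (black), and the departure of mutant 2 alone from the wild-type mean (open squares). The intervals of Flvcr1 and Hebp1 lie below 0, and in mutant 2 Blvrb lies lowest.

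The genes whose profile over the 6 arrays was most like the mean profile of the 9 were picked by Pearson's r among 2798 genes with an SD of at least 0.2 over the arrays. They are a description over 6 arrays of both genotypes, in which the low value of mutant 2 weighs most. In order they were Foxh1 (r = 0.996), the glycine transporter gene Slc6a9 (0.996), 6030468B19Rik (0.995), the red-cell potassium channel gene Kcnn4 (0.993), the amino acid transporter gene Slc38a5 (0.991), the blood group gene Kel (0.990), the red-cell repressor gene Gfi1b (0.989) and Nmnat3 (0.987). Kel and Gfi1b are members of the erythroid list. Slc6a9, which brings glycine into cells, read 8.18, 8.13 and 8.42 on the wild-type arrays and 8.13, 7.37 and 8.10 on the mutant arrays. All 8 were lowest in mutant 2. Alas2 itself had r = 0.962 with the mean profile and Alas1 r = −0.687. Each of this pair is part of that profile, unlike the 8 genes, so these r values are not on a par with theirs.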

How the data were processed

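Total RNA of 6 yolk sacs was extracted with Trizol, biotin-labelled and hybridised, per the labels' protocols, and groups were taken from the sample titles. The table deposited by the authors holds processed log2 signals of 35557 probe sets. The submitters' processing notes name MAS5 alone; other steps, not given in the sources used here, remain unknown. A log2 scale was inferred from a range of 0.66 to 13.68, and values were used as deposited. GEO's platform annotation gave 21789 probe sets 1 symbol, 1621 several and 12147 none, and no probe set with several named a member. Named probe sets with a mean at or above the 30th percentile (4.29) were tested.

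The genotype difference came from limma 3.58.1 under R 4.3.3 (lmFit, eBayes, no block, 4 residual and 3.47 prior degrees of freedom), with Benjamini-Hochberg adjustment over 16387 probe sets, and single values with exact permutation tests (scipy 1.17.1). The limma step was tested on simulated data. Precision is limited by how few arrays there are; differences had a median SE of 0.10. The members, lists and tests were chosen with earlier results of these data known. All 9 members were named, with the 6 partner genes of lowest p and the 8 genes of highest r. Promoters came from RefSeq, GRCm38.p6. Alternatives covered normalization, filters, variance models, the methods' t-test, covariates, the replicate block and left-out arrays.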

Additional observations from a re-analysis of the deposited data

How the results depend on the processing

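No member and no partner gene passed the adjusted threshold in any of 18 alternatives (lowest adjusted p of a member 0.592). Over all tested probe sets, 1 passed when the library labelled mutant 1 and wild type 2 were both left out, and 0 in the others. Alas1, Alas2, Uros, Urod and Ppox kept their direction in all 18, with Alas2 between −0.67 and −0.16 and Alas1 between 0.16 and 0.26. With the erythroid list mean as a covariate, 4 members in place of 8 were lower, the median difference was 0.020, and Alad (0.098), Cpox (0.020), Fech (0.079) and Slc25a37 (0.074) turned. The median otherwise ran from −0.47 to −0.12, and was −0.40 with the Xist covariate. When 1 array was left out it ran from −0.40 to −0.12, the latter without mutant 2.

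With array weights in limma, mutant 3 was weighted lowest (0.41) and mutant 2 at 1.39, and the median member difference was −0.38. The count of members at an unadjusted p under 0.05, 3 over all arrays, was 4 with these weights and 1 with the methods' t-test. The count was 7 with the Xist covariate, 0 with the erythroid covariate and 5 with the replicate block, and ran from 0 to 4 when 1 array was left out. It was 0 without wild type 1, wild type 2 or wild type 3, and 1 without mutant 2. The replicate numbers were not taken as pairs: deviations of same-numbered arrays correlated at 0.45, 0.15 and −0.11, and wild type 2 correlated best with another number. Relative to the erythroid list, the small difference of Uros ran from −0.063 to 0.051 and that of Urod from −0.010 to 0.058 when 1 array was left out. Uros turned in 3 fits, those that left out wild type 3 (0.016), the library labelled mutant 1 (0.051) and both wild type 2 and that library (0.025), and Urod in the fit that left out mutant 2. Under quantile normalization and centring the same 27 of 28 erythroid genes were lower and 14 of 14 endothelium genes higher. Averaging a gene's probe sets left every member as it was, since each has 1.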
